A study of Mus musculus with 4 samples.

Results

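The non-Hox homeobox patterning factors are 44 transcription factor genes, chosen by name from families such as Alx, Prrx, Msx, Dlx, Emx, Lhx, Meis, Pbx, Otx, Pitx, Irx and Pou3f, of 18193 genes with a named probe set on the arrays. All 44 had at least 1 probe set, and 36 were bright enough to be tested. The filter asked for at least 2 of the 4 arrays above a log2 signal of 5.97, the 40th percentile of all deposited values. The members were set in 5 groups by role: 10 mesenchymal, craniofacial and limb factors, 16 forebrain factors, 6 Meis and Pbx cofactors, 5 Irx factors and 7 other regional factors. Several members, such as Dlx5, Dlx6 and Msx1, act in more than 1 of these tissues, so the groups are a reading aid and not a classification.

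The arrays compared a pair of sublines of mouse neural stem cells, with 2 arrays for the tumorigenic subline, labelled glioma-initiating cell-like (GIC), and 2 for the nontumorigenic subline (non-GIC). All cells were p53-/- and of strain C57BL/6, and were prepared from the telencephalon of embryos at day 14.5. They were grown as floating spheres without serum, in medium with bFGF, PDGF, forskolin, insulin, transferrin, BSA, progesterone, putrescine, selenite, N-acetylcysteine, penicillin and streptomycin. Both sublines had received pCMS-EGFP-HRasL61, which encodes GFP and activated HRas, together with pBabe-neo by electroporation, were selected in neomycin and were sorted for GFP. The labels do not say how the sublines were separated, whether each is 1 clone, or whether the arrays of 1 subline stem from different cultures. The description of each array carries a code of its own whose meaning is not given. The p-values below therefore reflect array-to-array spread, which could be purely technical, and whatever else sets the sublines apart goes with the tumorigenic label.

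Homeobox genes encode transcription factors that bind DNA through a homeodomain, a fold whose recognition helix reads short AT-rich sites. Outside the Hox clusters they give regions of the embryo their identity. Emx, Lhx2, Otx, Six3, Vax1 and the Dlx pairs mark out the forebrain, while Alx, Prrx and Msx factors shape the mesenchyme of the face, skull and limbs, much of it from the neural crest. Meis, Pbx and Irx proteins belong to the TALE class, whose Meis and Pbx members bind DNA together with other homeodomain proteins.

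The arrays had medians of 6.58 to 6.63, and no pair of arrays held identical values. The neural stem cell label was set against its markers. Nes, an intermediate filament of neural stem cells, had 11.45 and 10.81 in non-GIC against 9.17 and 8.97 in GIC, and Sox2, a stem cell transcription factor, 11.15, 11.44, 10.20 and 10.59 in the same order. Of 10 neural stem cell markers 8 were tested, and the neural factor Sox1 and the surface protein Prom1 lay below the filter level on every array. Nes (adjusted p = 0.0459) and Fabp7 (adjusted p = 0.0258) were lower in GIC, and 6 markers did not pass. Fabp7 had 6.58 and 6.89 in non-GIC and 5.23 on both GIC arrays, which lay below the filter level. The spread between those GIC arrays may thus be understated, which bears on the Fabp7 p-value. Fabp7 also passed the level filter only through the non-GIC arrays, so its lack of overlap followed from the filter. The Nes and Fabp7 calls were lost with any 1 array left out (adjusted p = 0.0507 to 0.167). Of 9 fibroblast and mesenchyme markers 6 were tested and none passed with limma, with 0 at an unadjusted p under 0.05. Averaged over these 6 genes, the deviation from a gene's 4-array mean was -0.30 and -0.04 for non-GIC replicates 1 and 2, and 0.94 and -0.60 for GIC replicates 1 and 2. Of the other marker lists, 4 neuronal, 3 oligodendrocyte, 1 microglial and 2 endothelial genes were tested, and none passed (adjusted p = 0.303 or more, 0 at an unadjusted p under 0.05). The markers with the smallest p were Postn and Col1a1 among the fibroblast genes, Gad1 and Tubb3 among the neuronal ones, Mbp and Cspg4 for oligodendrocytes, Csf1r for microglia, and Cldn5 and Kdr for endothelium.

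Of the 36 tested members 3 were higher in GIC, namely Alx1, Six2 and Irx2, and none was lower. With limma's moderated test and Benjamini-Hochberg adjustment over all 13366 tested genes, 1.23% of genes were called higher and 0.688% lower. At an unadjusted p under 0.05, 6 members were higher and 3 lower, beside 9.75% and 8.1% of all tested genes. Without overlap between groups, 12 members were higher and 9 lower in GIC, beside 25.5% and 24.9% of all tested genes. Alx1, Lhx1 and Vax1 among these passed the level filter only through the group where they were higher. Their lack of overlap therefore followed from the filter. A separation of at least 1 on the log2 scale without overlap was found in 4 members upward (Alx1, Irx2, Lhx2 and Six2) and 2 downward (Irx3 and Meis1), beside 4.18% and 2.2% of all tested genes. Alx1 is counted here although its lack of overlap followed from the filter. The median log2 difference (GIC minus non-GIC) of the tested members was 0.05, and that of all tested genes was -0.01. In 23 of the 36 tested members the difference was under 0.4 in either direction, beside 9642 of all 13366 tested genes. In RNA from whole cultures, fewer cells that express a gene and less RNA per cell cannot be told apart. The set of called members changed with any 1 array left out, in fits that leave 1 array in a group. For each called member both GIC arrays lay above both non-GIC arrays, so the log2 differences could not change direction there. They ran from 3.70 to 4.26 for Alx1, 1.42 to 1.44 for Six2 and 2.63 to 3.41 for Irx2.

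**Figure D1:**
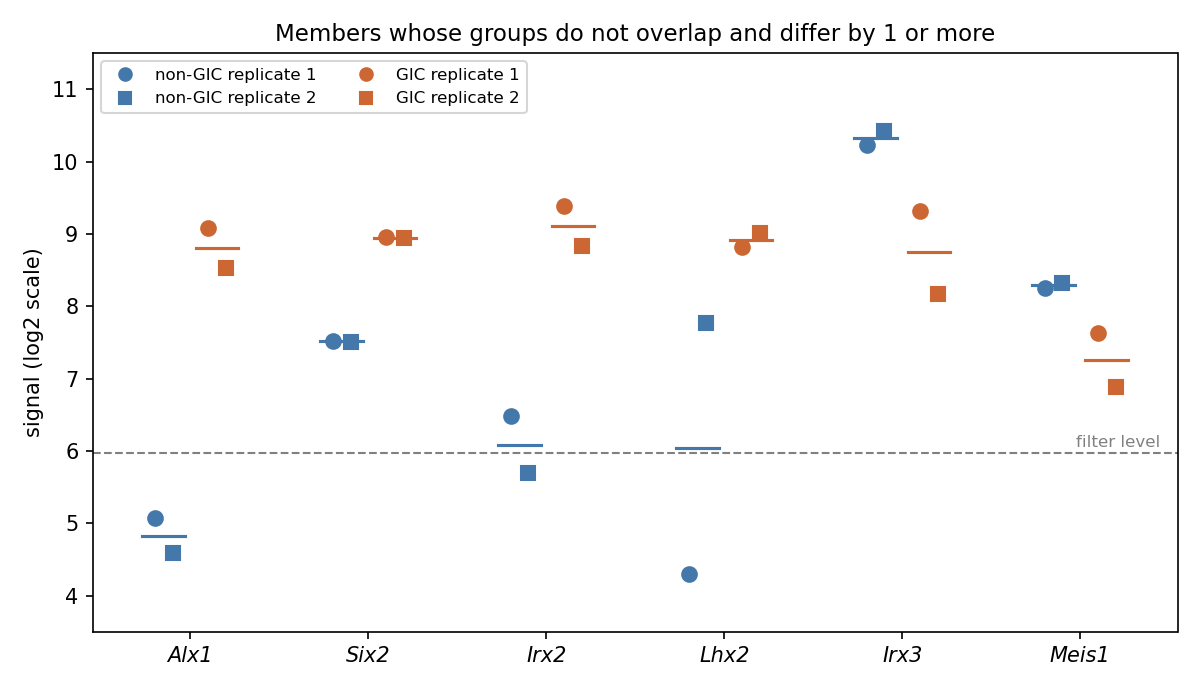
Log2-scale signal of the 6 members whose groups did not overlap and differed by at least 1, on each of the 4 arrays (points) with group means (bars); the dashed line is the filter level of 5.97. Alx1, Six2, Irx2 and Lhx2 lie higher on both GIC arrays, Irx3 and Meis1 lower, and the non-GIC arrays stand far apart for Lhx2.

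Alx1, a paired-like factor needed for the skull vault and midface, had the largest difference among the members with all 4 arrays. Its signal was 5.08 and 4.58 on non-GIC replicates 1 and 2, and 9.09 and 8.53 on GIC replicates 1 and 2. Both GIC arrays were far above both non-GIC arrays, which lay below the filter level. Group means were 4.83 ± 0.35 for non-GIC and 8.81 ± 0.40 for GIC (SD, n = 2), a log2 difference of 3.98 (SE 0.27, limma adjusted p = 0.013), or 15.7-fold. Since the non-GIC signal was below the filter level, the fold may be understated, and so may the spread between those arrays. Alx1 passed the level filter only through the GIC arrays, so its lack of overlap followed from the filter. The second Alx1 probe set gave 3.63 and 3.49 in non-GIC and 8.24 and 7.78 in GIC, a difference of 4.45. With non-GIC replicate 1 left out the adjusted p was 0.0686, and with non-GIC replicate 2 left out 0.0615. It was 0.038 or less under every other alternative run, each GIC array left out included.

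The second called member of the mesenchymal group was Six2, which maintains nephron progenitors and is expressed in craniofacial mesenchyme. It had 7.53 and 7.50 in non-GIC and 8.96 and 8.94 in GIC, all above the filter level. The arrays of a subline nearly coincided, and the sublines were well apart. The log2 difference was 1.43 (SE 0.14, adjusted p = 0.0288), or 2.70-fold. It hardly moved when an array was left out (1.42 to 1.44), but the adjusted p then lay between 0.0692 and 0.155. Six2 was measured by 1 probe set. Its upstream sequence is shown because Six2, like Irx2 below, is a called member; the RefSeq promoter table used (build GRCm38.p6) matched 32 of the 44 members. The 250 bases before the start, chr17:85688255-85688504 on the minus strand, read 5′ to 3′ with GC boxes (GGGCGG), the CCAAT box (CCAAT) and Meis-type cores (TGACAG), on either strand, in capitals:

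Six2: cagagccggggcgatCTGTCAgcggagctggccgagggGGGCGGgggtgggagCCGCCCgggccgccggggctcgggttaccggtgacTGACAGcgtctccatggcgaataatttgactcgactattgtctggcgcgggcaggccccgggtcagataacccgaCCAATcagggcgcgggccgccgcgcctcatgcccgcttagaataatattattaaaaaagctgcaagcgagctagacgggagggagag

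This window held 2 GC boxes, 1 CCAAT box and 2 Meis-type cores, with 26 CG dinucleotides. Over 32851 windows of the same length, 32.7% held a GC box, 33.9% a CCAAT box and 15.9% a Meis-type core, and 9.59% had as many CG dinucleotides. A match is a description of the letters and not a binding site.

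None of the other 8 mesenchymal, craniofacial and limb factors passed, and Msx1 alone had an unadjusted p under 0.05 (0.0078). Msx1, a BMP-responsive repressor of craniofacial and dorsal neural tissue, had 7.18 and 7.05 in non-GIC and 7.79 and 7.66 in GIC. The groups did not overlap, with a log2 difference of 0.61 (adjusted p = 0.132), and its other probe set past the filter gave 0.26. Its relative Msx2 had 8.41 and 8.40 in non-GIC and 7.18 and 8.23 in GIC, a difference of -0.70 (adjusted p = 0.406) with GIC replicate 1 alone set apart. Prrx2, a factor of limb and craniofacial mesenchyme, had 9.80 and 10.71 in non-GIC and 11.11 and 10.73 in GIC, a difference of 0.67 (adjusted p = 0.409). Here non-GIC replicate 1 was low, and non-GIC replicate 2 was within 0.03 of the lower GIC array.

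Prrx1, which acts with Prrx2 in limb and skull formation, had 11.52 and 11.87 in non-GIC and 12.08 and 11.37 in GIC. The groups overlapped, and the 95% interval of the difference ran from -0.74 to 0.80. Its 5 probe sets past the filter disagreed in sign, with differences from -0.19 to 0.30. Alx4, a relative of Alx1 in limb and skull patterning, had means of 6.48 ± 0.17 for non-GIC and 6.53 ± 0.08 for GIC (SD, n = 2), with a 95% interval of -0.30 to 0.40. The epidermal and bone factor Dlx3 had 7.09 and 6.74, with a difference of -0.35 (adjusted p = 0.326), and its chromosomal neighbour Dlx4 had 6.16 and 6.19. Pitx1, which specifies the hindlimb, had 6.63 in non-GIC and 6.66 in GIC, with a 95% interval of -0.41 to 0.47. The median difference over the 10 tested genes of this group was 0.04, with 0.64 under a filter at the 60th percentile, 0.19 without non-GIC replicate 1 and 0.28 without GIC replicate 2; the 8 genes other than Alx1 and Six2 lay between -0.70 and 0.67.

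**Figure D2:**
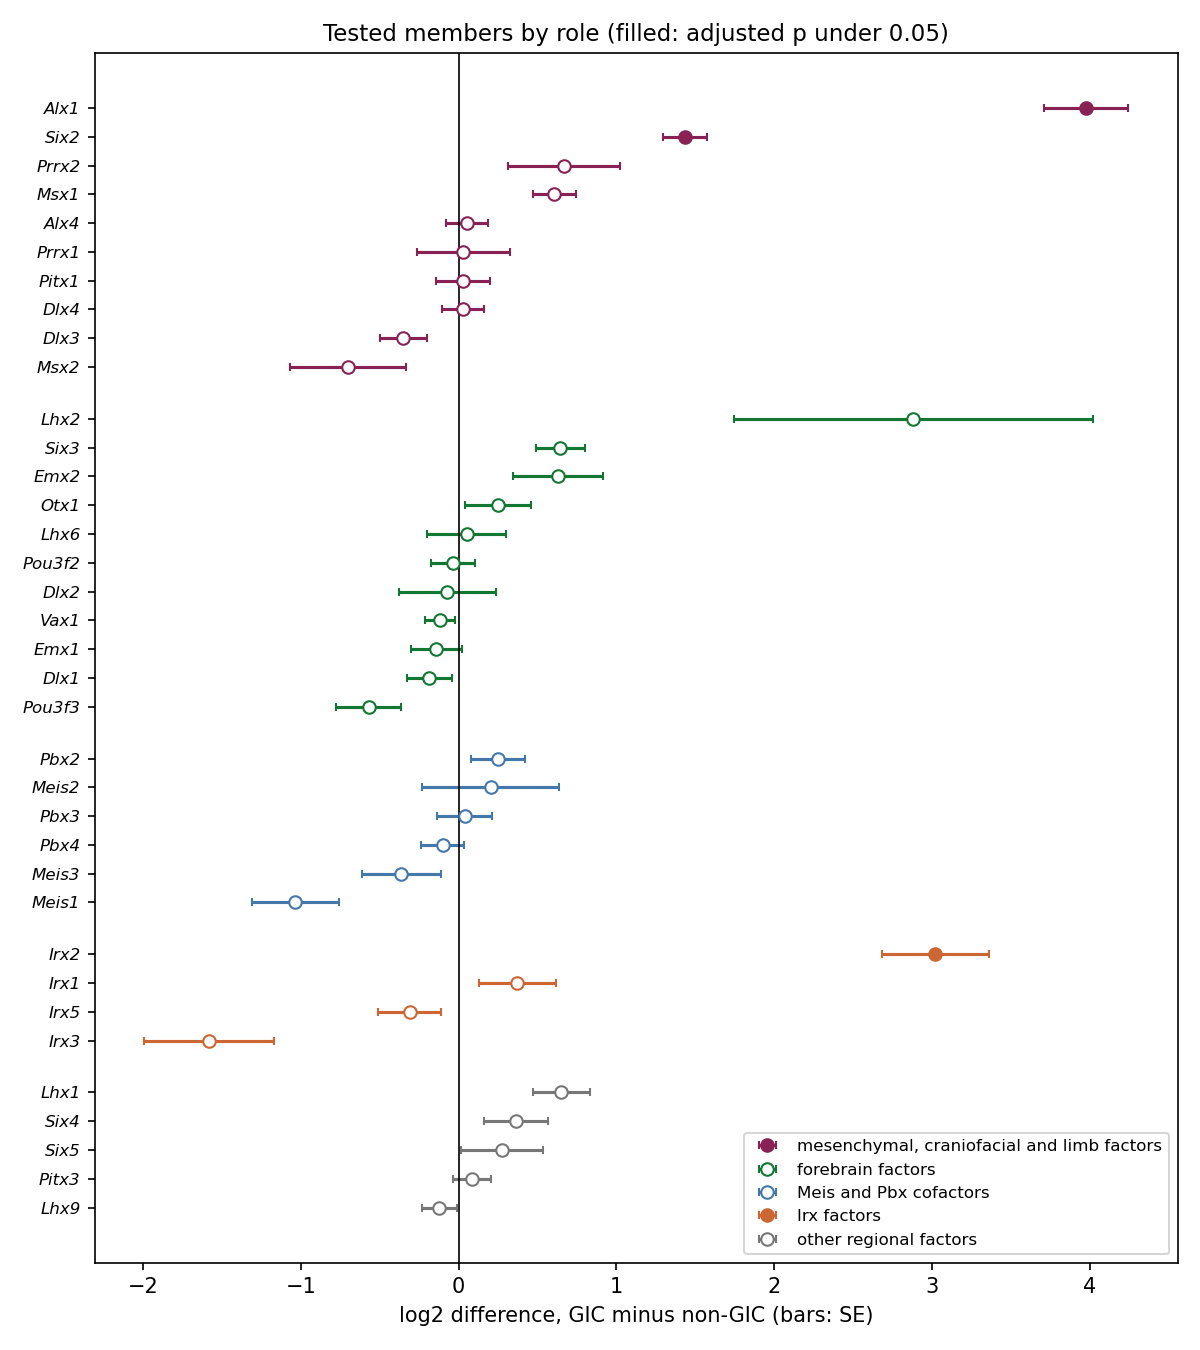
Log2 difference (GIC minus non-GIC) with its SE for the 36 tested members, grouped by role; filled points passed an adjusted p of 0.05. Alx1, Irx2 and Six2 are the filled points, Lhx2 has a wide bar, and most others lie near 0.

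No forebrain factor passed. Of 16 genes 11 were tested, with 5 differences above 0 and 6 below, and a median of -0.04. At an unadjusted p under 0.05 there was 1 gene higher (Six3) and 1 lower (Pou3f3). Lhx2, a LIM-homeobox selector of cortical identity, had the largest difference and the largest disagreement between arrays. It read 4.30 on non-GIC replicate 1 and 7.77 on non-GIC replicate 2, against 8.82 and 9.01 on the GIC arrays. The GIC arrays were close together and above both non-GIC arrays, while the non-GIC arrays differed by 3.47 on the log2 scale. Of 13366 tested genes 10, Lhx2 included, had a gap of that size between the non-GIC arrays. The log2 difference was 2.88 with an SE of 1.14 and a 95% interval of -0.10 to 5.86 (adjusted p = 0.293). It was 1.15 without non-GIC replicate 1 (adjusted p = 0.227) and 4.61 without non-GIC replicate 2 (adjusted p = 0.0332), so the array kept for non-GIC set both the size and the call. The latter value rests on non-GIC replicate 1 alone, whose signal was below the filter level, so its size and p are uncertain. Over its other alternatives the adjusted p ran from 0.153 to 0.513.

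Six3, which establishes the rostral forebrain and eye field, had 6.64 and 6.87 in non-GIC and 7.29 and 7.52 in GIC, without overlap and with a difference of 0.65 (adjusted p = 0.145). The other Six3 probe sets, below the filter level on every array, gave -0.02 and -0.11. Six3 lies next to Six2 on chromosome 17, with 0 protein-coding genes between them. Emx2, a regulator of cortical area identity, had 9.11 and 9.73 in non-GIC and 10.26 and 9.84 in GIC, a difference of 0.63 (adjusted p = 0.347). Its relative Emx1 had 7.53 and 7.45 in non-GIC and 7.20 and 7.50 in GIC, which overlapped. Pou3f3 (Brn1), a POU-homeobox factor of cortical progenitors and upper-layer neurons, had 11.27 and 11.71 in non-GIC and 10.91 and 10.93 in GIC. The groups did not overlap, with a difference of -0.57 (adjusted p = 0.261), and a second probe set gave -0.55. Pou3f2 (Brn2), which acts with it, had means of 7.38 and 7.34 and a 95% interval of -0.40 to 0.33.

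The Dlx1 and Dlx2 pair, which drives GABAergic interneuron formation in the ventral telencephalon, did not pass. Dlx1 had 7.40 and 7.58 in non-GIC and 7.24 and 7.37 in GIC, and Dlx2 had 8.17 and 8.84 in non-GIC and 8.18 and 8.69 in GIC. The difference was -0.19 for Dlx1 and -0.07 for Dlx2, and the Dlx2 arrays overlapped. Lhx6, a factor of interneurons from the medial ganglionic eminence, had means of 7.80 ± 0.44 and 7.85 ± 0.11 (SD, n = 2), with a second probe set going the other way. Otx1, a forebrain and midbrain factor, had 9.46 in non-GIC and 9.71 in GIC, with a 95% interval of -0.29 to 0.79. For Vax1, of the ventral forebrain and optic stalk, the non-GIC arrays lay just above the filter level (6.08 and 6.02) and the GIC arrays just below it (5.92 and 5.94). Dlx5, Dlx6, Lhx5, Lhx8 and Otx2 lay below the filter level on all 4 arrays and were not tested. These are values of single probe sets and no gene is called absent.

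The Irx factors, which pattern the neural plate, heart and limb, lie in a pair of clusters, and 4 of 5 were tested. Irx2 had 6.48 and 5.69 in non-GIC and 9.39 and 8.83 in GIC, and the groups were far apart. Its mean was 6.09 ± 0.56 for non-GIC and 9.11 ± 0.40 for GIC (SD, n = 2), a log2 difference of 3.02 (SE 0.34, adjusted p = 0.0346), or 8.11-fold. Non-GIC replicate 2 lay below the filter level, which limits the fold, and Irx2 was measured by 1 probe set. Leaving out an array moved the difference between 2.63 and 3.41 and took the adjusted p to between 0.0566 and 0.11. Of its neighbours in the chromosome 13 cluster, Irx1 did not pass, and how it compares with Irx2 was not tested. Irx1 had 8.84 and 9.00 in non-GIC and 9.57 and 9.01 in GIC, a difference of 0.37 (adjusted p = 0.497), with non-GIC replicate 2 within 0.02 of GIC replicate 2. Irx4, best known from the cardiac ventricle, was above the filter level on 1 array alone (6.24 on non-GIC replicate 1) and was not tested.

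In the chromosome 8 cluster neither tested member passed. Irx3 had 10.23 and 10.42 in non-GIC and 9.32 and 8.16 in GIC, with no overlap but with 1.16 between the GIC arrays. Its log2 difference was -1.58 (SE 0.41, adjusted p = 0.161). It was larger without GIC replicate 1 (-2.16, adjusted p = 0.0642) and smaller without GIC replicate 2 (adjusted p = 0.13). Irx5, adjacent to Irx3, had 8.89 and 9.10 in non-GIC and 8.86 and 8.51 in GIC, a difference of -0.31 (adjusted p = 0.491). Their upstream windows are shown side by side because these Irx genes had the largest differences of opposite sign. Irx2 is chr13:72628570-72628819 on the plus strand and Irx3 is chr8:91801655-91801904 on the minus strand (RefSeq, GRCm38.p6), with capitals as for Six2:

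Irx2: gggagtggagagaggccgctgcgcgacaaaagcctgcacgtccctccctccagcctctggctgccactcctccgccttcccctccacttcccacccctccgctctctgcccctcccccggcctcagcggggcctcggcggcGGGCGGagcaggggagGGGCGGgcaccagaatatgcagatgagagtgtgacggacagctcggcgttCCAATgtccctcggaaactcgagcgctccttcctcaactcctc

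Irx3: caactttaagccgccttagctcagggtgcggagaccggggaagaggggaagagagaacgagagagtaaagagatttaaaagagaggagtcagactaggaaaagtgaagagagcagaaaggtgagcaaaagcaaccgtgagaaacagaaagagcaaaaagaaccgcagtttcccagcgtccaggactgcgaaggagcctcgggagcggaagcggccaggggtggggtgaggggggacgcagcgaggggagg

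The Irx2 window held 2 GC boxes, 1 CCAAT box and 19 CG dinucleotides, and 68.4% of its bases were G or C. The Irx3 window held none of the motifs searched and had 13 CG dinucleotides, at 56% G or C. The homeodomain core TAATTA and the TATA box TATAAA were searched as well, on both strands, and were in neither window. The core was present in 4 of 39 windows of members and in 4.84% of all windows, and the TATA box in 2 of 39 and 12.4%. The 39 windows came from 32 members, so they are not separate genes, and some of those with the core were of Otx2. The members' windows were rich in G and C, with a median of 61.6% against 52.4% over all windows. The absence of these letters says nothing about the factors that bind there.

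None of the 6 Meis and Pbx cofactors passed, and Meis1 alone had an unadjusted p under 0.05 (0.0146). Meis1, a partner of Hox and Pbx proteins in hindbrain and blood stem cells, had 8.26 and 8.32 in non-GIC and 7.63 and 6.89 in GIC. Both GIC arrays were lower, with 0.74 between them, and the log2 difference was -1.03 (SE 0.28, adjusted p = 0.165). It was -0.66 without GIC replicate 2 and -1.41 without GIC replicate 1, and the other Meis1 probe sets lay below the filter level. Meis2, expressed in the striatal primordium, had 9.98 and 11.15 in non-GIC and 10.99 and 10.54 in GIC. The GIC values lay between the non-GIC values, which were 1.16 apart. Meis3, a hindbrain factor, had 7.38 and 8.03 in non-GIC and 7.42 and 7.26 in GIC, a difference of -0.36 (adjusted p = 0.523).

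The Pbx members had small differences. Pbx3 had means of 9.74 ± 0.15 for non-GIC and 9.78 ± 0.08 for GIC, and Pbx4 6.44 ± 0.10 and 6.34 ± 0.17 (SD, n = 2). Pbx2 had 9.02 and 9.04 in non-GIC and 9.40 and 9.16 in GIC, a difference of 0.25 (adjusted p = 0.517), while its other probe sets past the filter gave -0.01 and -0.13. The 95% intervals were -0.42 to 0.50 for Pbx3, -0.46 to 0.26 for Pbx4 and -0.20 to 0.70 for Pbx2.

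Of the 7 other regional factors 5 were tested and none passed; Lhx1 alone had an unadjusted p under 0.05 (0.0173). Lhx1, a factor of the head organizer, kidney and Purkinje cells, had 5.93 and 5.94 in non-GIC, just below the filter level, and 6.82 and 6.35 in GIC. The groups did not overlap, and the difference was 0.65 (adjusted p = 0.179). Its second probe set, with a lower mean signal, gave 4.85 and 4.99 in non-GIC and 7.21 and 6.31 in GIC, a difference of 1.84. The size for Lhx1 thus depended on the probe set. Six4 had 8.61 and 8.96 in non-GIC and 9.27 and 9.03 in GIC, a difference of 0.36 (adjusted p = 0.434), and all of its 4 probe sets had a difference above 0. Six4 and Six5 are relatives that act in muscle. Six5 had means of 7.69 and 7.96, which overlapped between arrays. Pitx3, known from midbrain dopamine neurons and lens, had 6.68 and 6.76, and the gonadal and diencephalic factor Lhx9 had 6.73 and 6.61, both with differences under 0.4. Gbx2, of the midbrain-hindbrain boundary, and Nkx2-2, of the ventral neural tube, were below the filter level on every array.

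Members differed in how well arrays of a subline matched. A gap of at least 1 on the log2 scale was found between the non-GIC arrays for Lhx2 and Meis2, and between the GIC arrays for Irx3 and Msx2. Of all tested genes 3.02% had such a gap in non-GIC and 3.16% in GIC. Alx1, Six2 and Irx2 had gaps from 0.02 to 0.79. The lowest of the 4 arrays was non-GIC replicate 1 for 36.1% of tested members and 27.1% of all tested genes. Where a member had other probe sets past the filter (12 members, 19 probe sets), 14 of these had the sign of the chosen probe set and 5 the opposite sign, in Lhx6, Pbx2 and Prrx1. One measurement alone stood behind the 23 members with a single probe set, Six2, Irx2, Lhx2 and Irx3 among them.

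**Figure D3:**
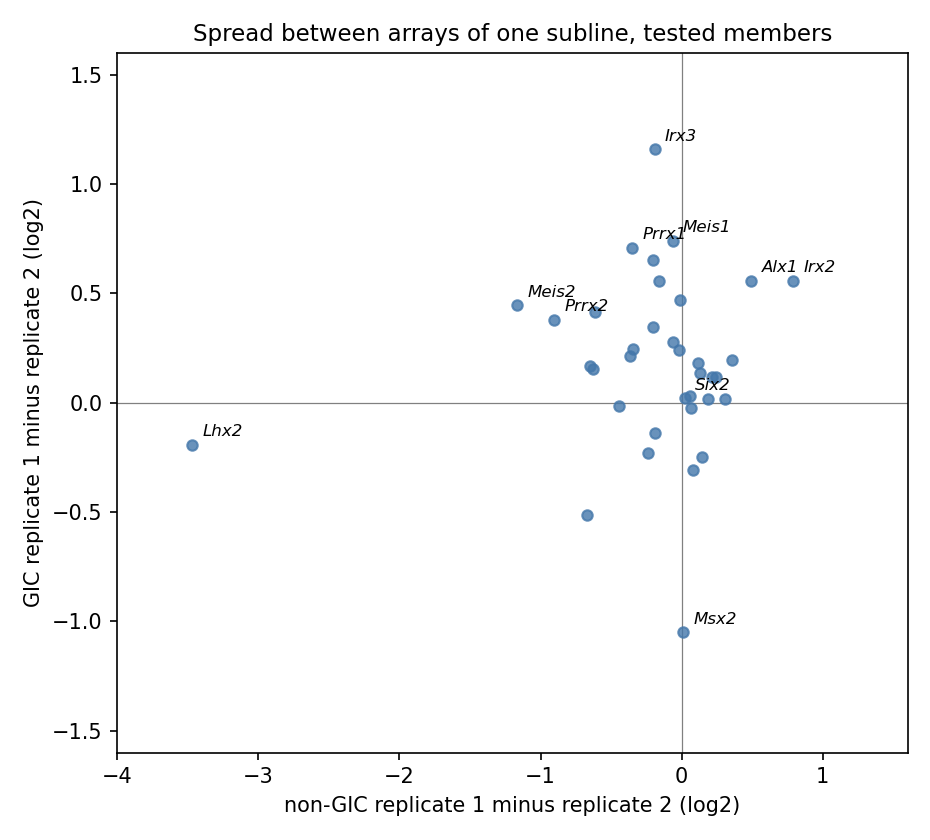
Difference between replicate 1 and replicate 2 (log2) in non-GIC (horizontal) and in GIC (vertical) for the 36 tested members. Lhx2 stands alone at -3.47 in non-GIC, and Irx3 and Msx2 have the widest gaps in GIC.

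Other regulators from the same developmental programmes were read from the same fit. Of 26 listed homeobox paralogues 16 were tested and none passed with limma, with 1 higher and 1 lower at an unadjusted p under 0.05. Shox2, a limb and sinoatrial factor, had 6.11 and 7.77 in non-GIC and 10.42 and 9.76 in GIC, a difference of 3.15 (adjusted p = 0.0986). As for Lhx2, non-GIC replicate 1 was the lowest array. The TALE gene Pknox2 had a difference of -0.92 (adjusted p = 0.124). The 16 genes had a median difference of -0.01.

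Of 17 listed forebrain regulators that are not members, 7 were tested and none passed, with 1 higher and 1 lower at an unadjusted p under 0.05. Nr2f1, which sets cortical area identity, had 11.01 and 11.20 in non-GIC and 9.93 and 10.00 in GIC, a difference of -1.14 (adjusted p = 0.0565). Zic2, a dorsal midline factor, had 7.44 and 7.45 in non-GIC and 8.20 and 8.13 in GIC, a difference of 0.72 (adjusted p = 0.0903). Pax6, a regulator of cortical radial glia, had 8.56 and 8.96 in non-GIC and 8.43 and 8.22 in GIC, a difference of -0.44 (adjusted p = 0.361).

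Of 20 listed mesenchymal and neural crest regulators 16 were tested, 1 was higher and 1 lower in GIC, and 14 did not pass. Osr1, an odd-skipped factor of intermediate mesoderm and connective tissue, had 4.95 and 5.58 in non-GIC and 7.23 on both GIC arrays, a difference of 1.96 (SE 0.22, adjusted p = 0.0348). Both non-GIC arrays lay below the filter level. Foxd1, a forkhead factor of renal stroma and ventral diencephalon, had 10.46 and 11.04 in non-GIC and 7.85 and 8.54 in GIC, a difference of -2.56 (SE 0.33, adjusted p = 0.0459). The Osr1 call was lost without non-GIC replicate 1 or either GIC array (adjusted p = 0.07 to 0.128), and the Foxd1 call without any 1 of the arrays (adjusted p = 0.0506 to 0.163). Twist1, a mesenchymal basic helix-loop-helix factor, had 9.06 and 9.26 in non-GIC and 8.59 and 8.80 in GIC, a difference of -0.47 (adjusted p = 0.277). At an unadjusted p under 0.05 there were 8 higher and 2 lower, beside 9.75% and 8.1% of all tested genes. Without overlap 11 were higher and 3 lower in GIC, beside 25.5% and 24.9%. Osr1 and its relative Osr2 among these passed the level filter only through the GIC arrays, so their lack of overlap followed from the filter. The median difference of the 16 genes was 0.66, against -0.01 over all tested genes. The list was chosen with earlier results of these data known, so these counts and the median are a description only. The lowest array was non-GIC replicate 1 for 12 of these 16 genes, beside 27.1% of all tested genes. In the 11 genes higher without overlap a non-GIC array had to be the lowest. The mean deviation of the fibroblast markers given above was highest on GIC replicate 1. Col1a1, though, was higher on both non-GIC arrays and Col1a2 on GIC replicate 2. What part these arrays and markers have in the values was not tested.

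**Figure D4:**
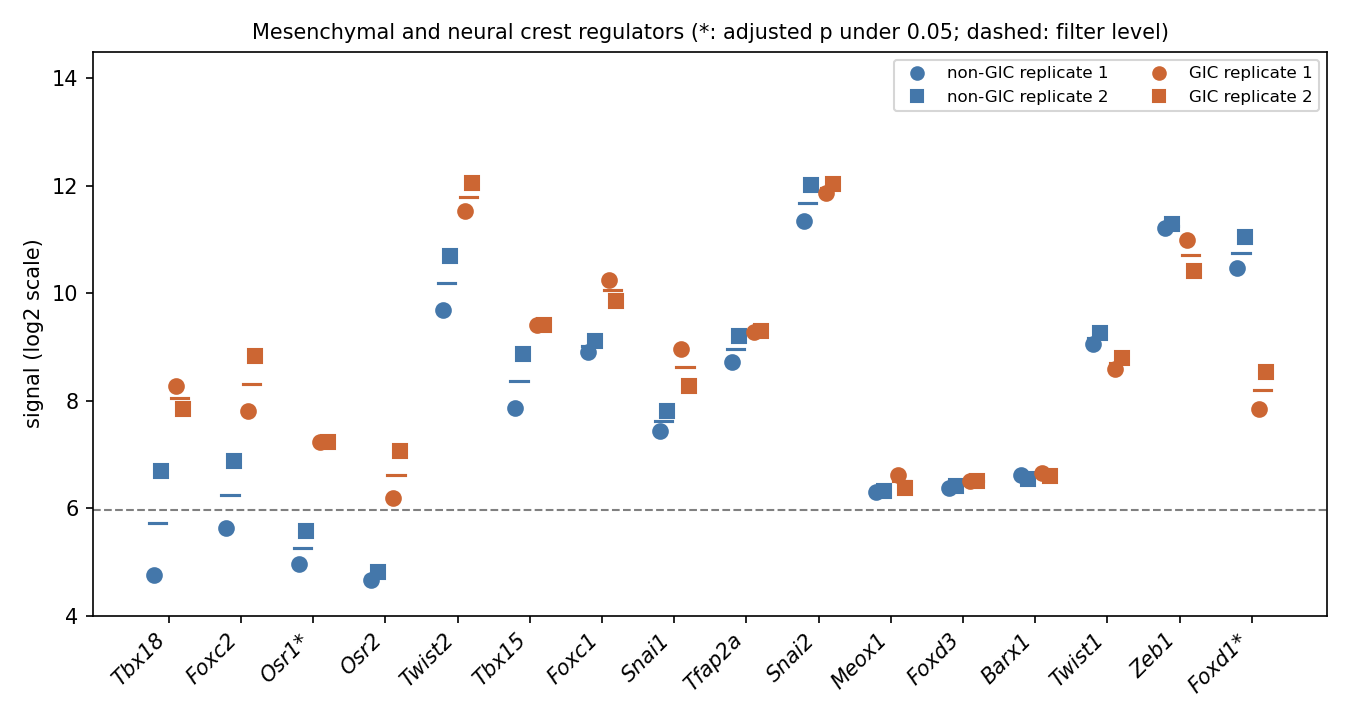
Log2-scale signal of the 16 tested mesenchymal and neural crest regulators on each array (points) with group means (bars), ordered by difference; asterisks mark an adjusted p under 0.05 and the dashed line is the filter level. Osr1 is higher and Foxd1 lower on both GIC arrays, and non-GIC replicate 1 is often the lowest point.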

How the data were processed

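Expression was measured on 4 arrays, 2 per subline. Per the labels' protocols, in vitro transcription with biotin labelled the total RNA. The authors deposited log2-scale signals with near-equal distributions across arrays; the log base was inferred from the range. How they corrected background, summarised probes and normalized is not given in the sources used here. No detection calls were read. The platform annotation gave 1 symbol for 34945 of 45101 probe sets, several for 932 and none for 9160, besides 64 controls. Entrez identifiers matched 34741 of them to the GRCm38.p6 gene table, also used for gene order.

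The brightest probe set on average stood for its gene, and the level filter kept genes with 2 or more arrays above the 40th percentile. The two-sided moderated test of limma 3.58.1 (R 4.3.3, eBayes with trend) was adjusted by Benjamini-Hochberg over 13366 genes, at 0.05; intervals are at 95%. Degrees of freedom were 2 residual and 2.72 prior; the smallest p of an exact permutation test with these groups is 0.333. The code of the fit was also run on simulated data with changes of known size and independent noise, which does not bear on the calls given here. Python 3.11.15 and matplotlib 3.10.9 drew the figures.

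Members and lists were chosen with earlier results of these data known, and no list was tested as a whole. Members past the threshold, or without overlap and at least 1 apart on the log2 scale, were given in full, the other members by values, means or range, and of each other list the genes that passed or else the 2 with the smallest p, plus Pax6, Twist1, Nes and Sox2. Of 105 listed genes that are not members 95 had a named probe set, and the rest were not analysed here. Alternatives were the replicate block, quantile normalization, median centring, other filters and probe set rules, other eBayes settings, and each array left out; a crossed block was added after seeing the data.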

Additional observations from a re-analysis of the deposited data

How the results depend on the processing

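With another normalization, filter, probe set rule or eBayes setting, between 198 and 261 genes and in each case 3 members changed. With the replicate number as a block, 29 genes and 1 member (Alx1) changed. The numbers only name arrays. The gaps between replicates in GIC and in non-GIC had a weak negative correlation (r = -0.32 over tested genes, which are not independent replicates). A crossed block, chosen after seeing the data, called 685 genes and 3 members. With 1 array left out, 12 to 188 genes and 0 to 1 members changed; a lone array is then assumed to vary like the other group. The median of the mesenchymal, craniofacial and limb members, 0.04, was 0.64 with the filter at the 60th percentile, which leaves fewer genes, and ran from -0.038 to 0.28 with an array left out. With an array left out that of the forebrain members ran from -0.085 to 0.26, and it was -0.097 with quantile normalization. Of 481 member values under the alternatives, 441 kept direction and side of the threshold and 27 turned sign, all in members whose difference with all arrays was under 0.3 in size. The blocks, eBayes settings and other filters leave each log2 difference as it is, so no sign could turn under them. Other probe set rules cannot alter the difference of a member with 1 probe set. The 441 are thus no measure of stability. Median centring gave -0.00013 for Prrx1, -0.0020 for Pitx1 and -0.0038 for Dlx4, quantile normalization -0.0096 for Pitx1 and the mean of probe sets -0.022 for Lhx6. With an array left out the ranges were -0.069 to 0.17 for Alx4, -0.41 to 0.26 for Dlx2, -0.11 to 0.17 for Dlx4, -0.29 to 0.015 for Emx1, -0.26 to 0.37 for Lhx6, -0.38 to 0.78 for Meis2, -0.068 to 0.15 for Pbx3, -0.22 to 0.024 for Pbx4, -0.15 to 0.21 for Pitx1, -0.0062 to 0.18 for Pitx3, -0.13 to 0.053 for Pou3f2, -0.32 to 0.39 for Prrx1 and -0.052 to 0.60 for Six5. Of the marker genes, which are not members, Csf1r had 0.071 when probe sets open to several transcripts were omitted, and Kdr ranged from -0.14 to 0.011 with an array left out. The cause was not tested. Signals below the filter level limit the folds of Alx1, Irx2 and Lhx2.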

Other observations

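The nearest tested genes on each side of the called members were read along the chromosome, a step chosen after the members' values were seen. Beside Alx1, with 2 protein-coding genes between them, lies Slc6a15, an amino acid transporter gene, with 7.41 and 3.87 in non-GIC and 9.44 and 10.61 in GIC. Both GIC arrays were higher, but the non-GIC arrays were far apart, and the log2 difference of 4.38 did not pass (limma adjusted p = 0.18). Next on that side, Tmtc2 had -0.055 (adjusted p = 0.833). On the other side of Alx1 the nearest tested genes had differences of 0.42 and 0.56. Beside Six2, Six3 had 0.65 and Prepl -0.71 on one side, and Srbd1 -0.07 and Prkce 0.14 on the other. Beside Irx2, Irx1 had 0.37 and Adamts16 0.89, and Mrpl36 0.17 and Lpcat1 -0.09. No such neighbour of Six2 or Irx2 passed the threshold.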
